A study of Mus musculus with 9 samples.

Results

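The expression of 10 integrin subunits, 6 α subunits (Itga1, Itga4, Itga5, Itga8, Itga11, Itgav) and 4 β subunits (Itgb1, Itgb3, Itgb5, Itgb8), was examined in lung fibroblasts sorted from aged mice 30 days after intratracheal saline or bleomycin. The subunits were selected by gene name as those known in lung fibroblasts, and all 10 were found among the 43346 genes of the deposited table. The libraries came from 4 male mice given 1 dose of saline (aged sham) and 5 male mice given 1 dose of bleomycin (aged bleo). All 9 mice carried the Col1a1-GFP transgene, in which a collagen I promoter drives GFP, and were aged (18 months in the design text and 72 weeks in the sample labels). From each lung digest, GFP+ cells that lacked CD45, CD31, and EpCAM were sorted directly into lysis buffer. The reporter gates on collagen I promoter activity, so the sorted population holds cells that pass this gate and not every fibroblast of the lung. Young mice, which the study also examined, are not covered here.

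Integrins are transmembrane receptors made of 1 α and 1 β subunit, and the pair sets which matrix protein is bound. In fibroblasts, Itgb1 pairs with Itga1 and Itga11 to bind collagen, with Itga5 to bind fibronectin, with Itga8 to bind nephronectin, and with Itga4 to bind VCAM1 and fibronectin. Itgav pairs with Itgb1, Itgb3, Itgb5, or Itgb8 in receptors for vitronectin, osteopontin, and fibronectin, several of which also bind latent TGF-β and release its active form. The RNA of a subunit gives no measure of the pairs formed or of the protein at the cell surface.

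Total counts were 49921946 to 62370512 in the aged sham libraries and 53833507 to 68260600 in the aged bleo libraries, and the member counts in single libraries ran from 491 (Itga4) to 108813 (Itgb1). Levels within a gene are given as CPM, counts scaled to library size with the TMM factors. Fold changes compare aged bleo with aged sham, and a gene was called when its FDR, the Benjamini-Hochberg adjusted p-value of edgeR's quasi-likelihood test over 16877 genes, was under 0.10 and its fold change over 1.5. The fibroblast markers Col1a2 (4884 to 6202 CPM in aged sham and 12764 to 19117 CPM in aged bleo) and Pdgfra (775 to 986 CPM and 440.2 to 865 CPM) were detected at these levels in all libraries, and of 8 fibroblast genes 4 were called higher and 2 lower. Epcam did not exceed 1.201 CPM, Cdh5 2.26 CPM, and Pecam1, which encodes CD31, 6.70 CPM in any library. Ptprc, which encodes CD45, was at 30.6 to 183 CPM with the highest level of each group in aged sham 4 and aged bleo 4. The endothelial list had a summed level of 164 to 202 CPM in aged sham and 26.6 to 70.9 CPM in aged bleo (1 of 6 genes called higher and 1, Tek, lower), and Tek alone was at 149 to 179 CPM in aged sham and 9.51 to 55.7 CPM in aged bleo. In bulk RNA, fewer cells of a type and less RNA per cell cannot be told apart.

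For the called subunits with a RefSeq promoter entry, the bases from 250 to 31 upstream of the start (GRCm38.p6, 5′ to 3′ on the strand of the gene) are printed to show the sequence beside which the changes described here occurred. Capitals mark CAGAC or its complement GTCTG, the core bound by SMAD factors, and GGAAA or its complement TTTCC, the core bound by NFAT factors. The windows are chr13:115101995-115102214 on the minus strand for Itga1, chr15:103366822-103367041 on the minus strand for Itga5, chr8:128685404-128685623 on the plus strand for Itgb1, and chr9:62677605-62677824 on the plus strand for Itga11.
Itga1: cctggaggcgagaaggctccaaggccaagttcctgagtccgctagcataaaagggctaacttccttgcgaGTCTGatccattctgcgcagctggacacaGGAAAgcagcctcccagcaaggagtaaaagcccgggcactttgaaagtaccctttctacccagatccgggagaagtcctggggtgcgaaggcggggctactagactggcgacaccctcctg
Itga5: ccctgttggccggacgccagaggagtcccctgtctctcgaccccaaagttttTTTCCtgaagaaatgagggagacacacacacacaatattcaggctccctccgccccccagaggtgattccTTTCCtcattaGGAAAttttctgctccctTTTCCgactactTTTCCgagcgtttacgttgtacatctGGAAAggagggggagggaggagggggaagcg
Itgb1: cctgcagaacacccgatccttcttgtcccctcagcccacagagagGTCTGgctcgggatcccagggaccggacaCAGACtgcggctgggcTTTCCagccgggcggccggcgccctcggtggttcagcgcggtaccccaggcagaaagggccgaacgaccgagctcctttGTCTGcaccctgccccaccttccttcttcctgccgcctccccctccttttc
Itga11: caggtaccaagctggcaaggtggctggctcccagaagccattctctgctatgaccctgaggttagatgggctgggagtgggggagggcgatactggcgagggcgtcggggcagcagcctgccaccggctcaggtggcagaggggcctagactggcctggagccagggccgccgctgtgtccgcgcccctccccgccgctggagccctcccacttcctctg

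The Itga5 window held 6 matches to GGAAA on both strands together, a number reached by 0.0335% of 32851 promoter windows of the same length. The cutoff of 6 was taken from this window, the highest count of any motif in any member. The share is thus a description of a picked value and no test of it. Itga1 and Itgb1 held 1 GGAAA match each, and 51.3% of all windows held at least 1. Itgb1 held 3 matches to CAGAC and Itga1 held 1. At least 1 was held by 38.5% of all windows, and the share with 3 or more was not computed. In the Itga11 window neither was found. Among the 9 members with an entry, 3 held GGAAA, 4 held CAGAC, and 4 held GGGCGG, the core bound by Sp1 (28.5% of all windows). None held TGANTCA (AP-1, 6.12% of windows), GGAATG (TEAD, 11.4%, which shares its first letters with GGAAA), or a CArG box (1.3%). These matches are letters in a window and were not measured as sites.

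Of the 10 subunits, 5 were called. Itga1, Itga5, and Itgb1 rose and Itga11 and Itgb3 fell in aged bleo, while 23.8% of all genes tested were called (12.3% higher and 11.5% lower). The libraries of the 2 groups did not overlap for 6 subunits, which were these 5 and Itgb5, against 32.2% of all genes tested. The members' log2 fold changes ran from -1.05 to 1.49 with a median of 0.42, beside a median of 0.01 over all genes tested. As 44.8% of genes had an FDR under 0.10 and 7 of the 10 subunits did, the members' counts are given as a description.

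**Figure D1:**
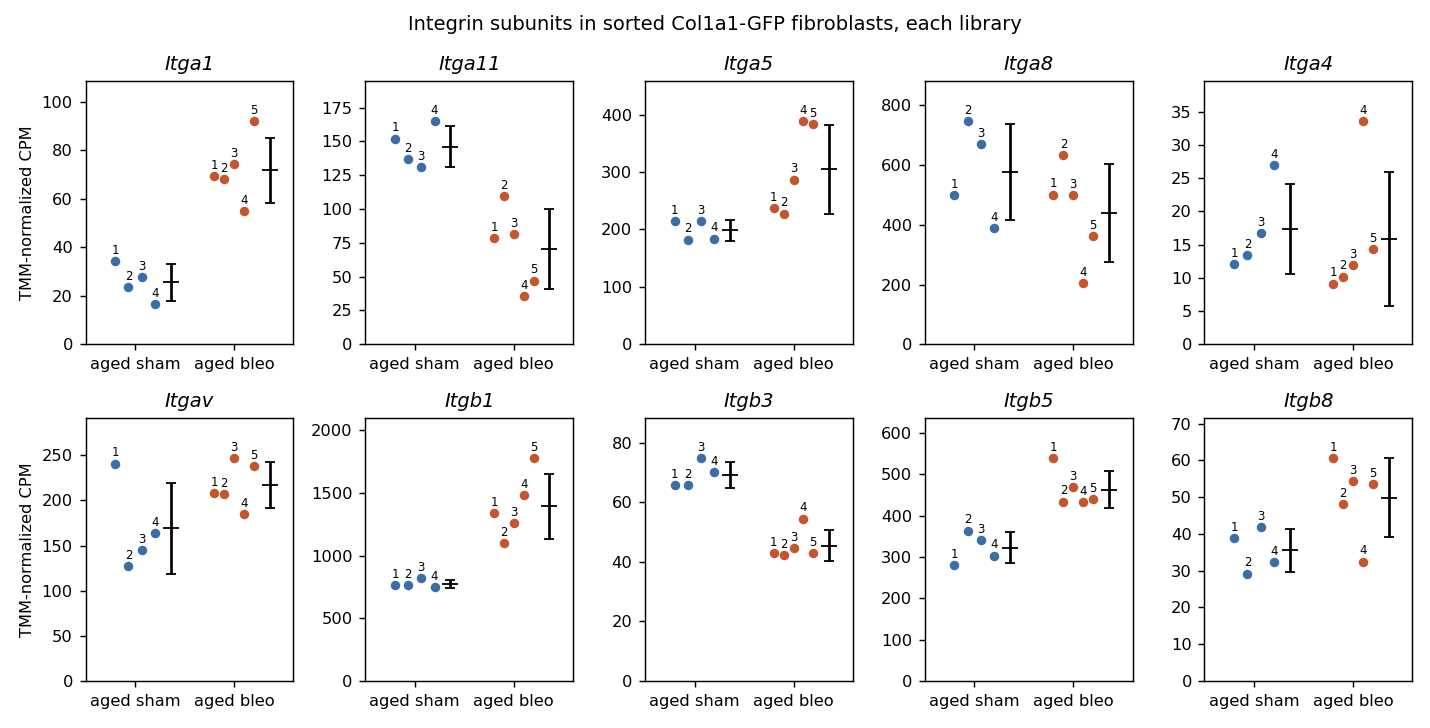
TMM-normalized CPM (y axes, each starting at 0) of the 10 integrin subunits in the 4 aged sham and 5 aged bleo libraries, 1 panel per gene, with each point 1 library numbered by replicate and the bars giving the group mean and SD. The groups are apart for Itga1, Itga5, Itgb1, and Itgb5 (higher in aged bleo) and for Itga11 and Itgb3 (lower). Aged bleo 4 is the highest library for Itga4 and Itga5 and the highest aged bleo library for Itgb3. It is the lowest aged bleo library for Itga1, Itga8, Itga11, Itgav, Itgb5, and Itgb8.

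The collagen-binding α subunits moved in opposite directions. Itga1 (ENSMUSG00000042284, chr13:114958079-115101964, minus strand) encodes a subunit that binds collagen IV and collagen I. Its levels were 34.4, 23.7, 27.8, and 16.4 CPM in aged sham 1 to 4 and 69.4, 68.1, 74.4, 55.0, and 92.1 CPM in aged bleo 1 to 5. Every aged bleo library was above every aged sham library. Itga1 rose from 25.6 ± 7.55 CPM (SD, n = 4) to 71.8 ± 13.4 CPM (SD, n = 5), which is 2.80-fold (log2 fold change 1.49, SE 0.22, FDR = 0.00133), and it was called under all 24 alternative settings.

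Itga11 (ENSMUSG00000032243, chr9:62677826-62783982, plus strand) encodes a subunit that binds fibrillar collagen and is largely restricted to mesenchymal cells. Its levels were 152, 137, 131, and 165 CPM in aged sham and 78.6, 109.6, 81.7, 35.8, and 47.0 CPM in aged bleo. The groups did not overlap, and the lowest levels were those of aged bleo 4 and 5. Itga11 fell from 146 ± 15.3 CPM to 70.5 ± 29.5 CPM, to 0.482 of its sham level (log2 fold change -1.05, SE 0.29, FDR = 0.0204), and it too was called under all 24 settings.

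Per length, the balance between these subunits differed between the groups without overlap. Itga1 made up 7.85% to 16.3% of the summed FPKM of Itga1 and Itga11 in aged sham and 34.7% to 62.7% in aged bleo. By the deposited lengths, the ratio of Itga1 to Itga11 was 0.0852 to 0.194 in aged sham and 0.533 to 1.68 in aged bleo, above 1 in aged bleo 4 (1.32) and aged bleo 5 (1.68). The deposited length of Itga1, 5984 bases, is shorter than its longest coding transcript in GENCODE M21 (10967 bases). The deposited gene starts at 114958079 and the GENCODE M21 gene at 114953096, so reads of the bases between were not counted for Itga1. Dividing its counts by the transcript length therefore understates its level. With the transcript lengths the ratio was 0.045 to 0.103 in aged sham and 0.281 to 0.887 in aged bleo, with 0.696 in aged bleo 4, so that Itga11 was above Itga1 in all 9 libraries. As the transcript length understates Itga1, these values do not bear on which of the pair was higher in aged bleo 4 and 5. The separation of the groups was there with both lengths. Ddr2, a collagen-binding receptor kinase outside the integrin family, fell from 1113 ± 62.5 to 623 ± 171 CPM (log2 fold change -0.84, SE 0.20, FDR = 0.0113). The ligand Col1a1 rose from 4154 ± 407 to 20853 ± 4970.3 CPM (log2 fold change 2.33, SE 0.23, FDR = 0.000176).

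Among the α subunits that bind fibronectin and related RGD ligands, Itga5 rose, and neither Itga8 nor Itgav was called. Itga5 (ENSMUSG00000000555, chr15:103344289-103366763, minus strand) encodes the main fibronectin receptor subunit of fibroblasts. It was at 215, 182, 215, and 184 CPM in aged sham and at 237, 227, 287, 389, and 383 CPM in aged bleo. The groups did not overlap, with aged bleo 2 nearest to the aged sham libraries and aged bleo 4 and 5 far above the rest. The mean went from 199 ± 18.3 to 305 ± 77.7 CPM, 1.53-fold (log2 fold change 0.61, SE 0.18, FDR = 0.0271). With a fold change close to 1.5, the call was lost under 9 of 24 settings, among them without aged sham 2 (0.57), aged sham 4 (0.58), aged bleo 4 (0.50), or aged bleo 5 (0.52), and without both aged bleo 4 and 5 the log2 fold change was 0.33. The direction was kept in all 24, of which the changed thresholds and the robust fit gave the main fold change itself. Fn1, its ligand fibronectin, rose from 5471 ± 2115 to 11074 ± 1939 CPM (log2 fold change 1.02, SE 0.26, FDR = 0.0169).

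Itga8 (ENSMUSG00000026768, chr2:12106632-12301922, minus strand), which encodes the nephronectin receptor subunit and in the lung marks alveolar fibroblasts, was at 501, 747, 670.0, and 389 CPM in aged sham and at 501, 632, 499, 204, and 363 CPM in aged bleo. The groups overlapped, with aged bleo 4 and 5 below every aged sham library. The means were 577 ± 162 and 439.7 ± 163 CPM (log2 fold change -0.39, SE 0.31, FDR = 0.354). The size depended on single libraries, as the log2 fold change was -0.22 without aged bleo 4, -0.24 without aged sham 2, and -0.09 without both aged bleo 4 and 5. Its ligand Npnt, nephronectin, rose from 258 ± 99.5 to 471 ± 139 CPM (log2 fold change 0.87, SE 0.30, FDR = 0.0469), although aged bleo 4 (286 CPM) and aged bleo 5 (379.8 CPM) lay below aged sham 2 (391 CPM).

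Itgav (ENSMUSG00000027087, chr2:83724397-83806916, plus strand) was at 241, 127, 145, and 164 CPM in aged sham and at 208, 207, 247, 185, and 238 CPM in aged bleo. Aged sham 1 was above all aged bleo libraries but aged bleo 3, and the other sham libraries lay below them. Means were 169 ± 50.1 and 217 ± 25.4 CPM (log2 fold change 0.36, SE 0.18, FDR = 0.149), and Itgav was not called under any of the 24 settings. The highest value was 0.578 (FDR = 0.013) without aged sham 1, which missed only the fold threshold (log2 0.585). The size and FDR of the Itgav difference thus leaned on that library, while its call status did not change.

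Itga4 (ENSMUSG00000027009, chr2:79255426-79333123, plus strand), a subunit abundant on leukocytes and present on some mesenchymal cells, had the lowest levels of the members. It was at 12.0, 13.4, 16.7, and 27.0 CPM in aged sham and at 9.13, 10.2, 11.9, 33.6, and 14.4 CPM in aged bleo. The highest library of each group was replicate 4, and the groups overlapped (17.3 ± 6.76 against 15.8 ± 10.1 CPM, log2 fold change -0.12, SE 0.41, FDR = 0.837). The direction depended on these libraries, as the log2 fold change was -0.61 (FDR = 0.0976, called) without aged bleo 4, 0.17 without aged sham 4, and -0.32 (FDR = 0.218) without both.

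The same libraries held the most leukocyte RNA. The summed level of 6 pan-leukocyte genes was 137, 164, 264, and 483 CPM in aged sham and 142, 165, 218, 747, and 210.0 CPM in aged bleo, and 1 of the 6 was called, higher. Ptprc was at 42.3, 44.7, 92.4, and 169 CPM in aged sham and at 30.6, 31.2, 43.6, 183, and 36.4 CPM in aged bleo. The leukocyte integrin subunits Itgal and Itgam, named after their values were seen, peaked in the same libraries, with 79.4 and 98.1 CPM in aged sham 4 and 91.4 and 123 CPM in aged bleo 4. Neutrophil genes were also highest in these libraries, with a summed level of 1019.8 CPM for aged sham 4 and of 915 CPM for aged bleo 4, against 169.8 to 450.0 CPM and 85.8 to 148 CPM in the other libraries of each group. The part of leukocyte RNA in the Itga4 level was not tested. Vcam1, which encodes the ligand of α4β1, was at 325 ± 56.7 and 366 ± 111 CPM (log2 fold change 0.17, SE 0.23, FDR = 0.598).

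**Figure D2:**
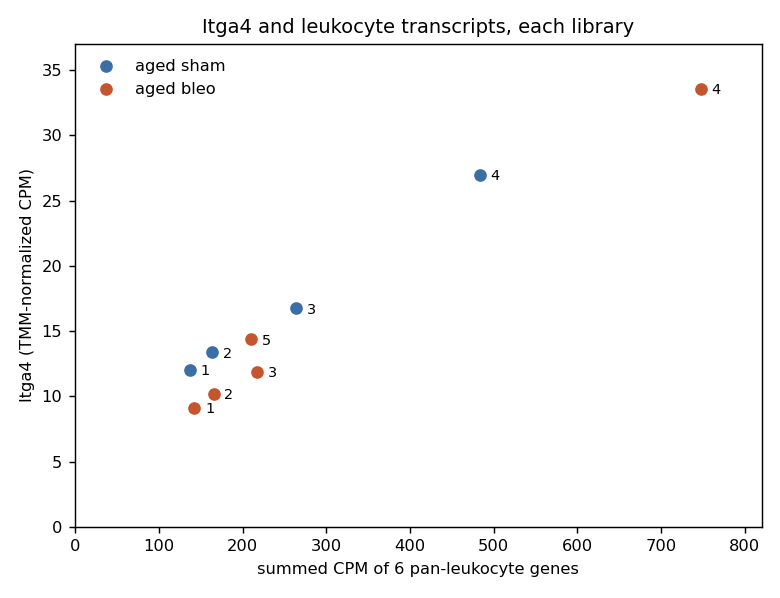
Itga4 (y axis, TMM-normalized CPM) against the summed CPM of the 6 pan-leukocyte genes (x axis) in each of the 9 libraries, aged sham in blue and aged bleo in orange, numbered by replicate. Aged sham 4 (483 CPM of leukocyte genes, 27.0 CPM of Itga4) and aged bleo 4 (747 and 33.6 CPM) lie apart from the other 7 libraries, which have at most 16.7 CPM of Itga4.

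Of the β subunits, Itgb1 rose and Itgb3 fell. Itgb1 (ENSMUSG00000025809, chr8:128685654-128733200, plus strand) encodes the shared partner of most of the α subunits above. It was at 762, 764, 818, and 748 CPM in aged sham and at 1339, 1100.0, 1262, 1485, and 1781 CPM in aged bleo. No aged bleo library came within the range of the aged sham libraries, which were close to each other. The mean went from 773 ± 30.8 to 1393 ± 257 CPM, 1.80-fold (log2 fold change 0.85, SE 0.14, FDR = 0.0026), and leaving out single libraries gave 0.75 to 0.92 with the call kept each time.

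Itgb3 (ENSMUSG00000020689, chr11:104608000-104670476, plus strand) encodes the partner of Itgav in the αvβ3 receptor and of Itga2b on platelets. It was at 65.8, 65.9, 75.0, and 70.3 CPM in aged sham and at 43.0, 42.2, 44.7, 54.6, and 43.0 CPM in aged bleo. The groups did not overlap, and aged bleo 4 was the highest of the aged bleo libraries. Itgb3 fell from 69.2 ± 4.36 to 45.5 ± 5.15 CPM, to 0.657 of its sham level (log2 fold change -0.61, SE 0.09, FDR = 0.00136). The FDR was at most 0.0563 in 24 settings, but the size lies near the threshold, so that the call was lost in 7 of them, including without aged sham 3 (-0.56), aged bleo 2 (-0.58), or aged bleo 5 (-0.58). Platelet genes had a summed level of 22.0 to 32.7 CPM in aged sham and 15.8 to 22.0 CPM in aged bleo (1 of 4 tested called, lower). Itga2b, named after its values were seen, was at 9.99 ± 1.51 and 9.08 ± 2.15 CPM (log2 fold change -0.14, FDR = 0.59), and Pf4 was at most 3.85 CPM. The part of platelet RNA in the Itgb3 level was not tested.

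Itgb5 (ENSMUSG00000022817, chr16:33829665-33949153, plus strand), the other abundant Itgav partner, was at 280.0, 364, 341, and 303 CPM in aged sham and at 540.2, 434, 469, 434, and 440.2 CPM in aged bleo. The groups did not overlap, with means of 322 ± 37.6 and 463 ± 45.2 CPM. The difference had an FDR of 0.00668 but a fold change of 1.44 (log2 0.52, SE 0.11), short of the fold threshold. It passed without aged sham 2 (0.59).

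Itgb8 (ENSMUSG00000025321, chr12:119158022-119238802, minus strand), which with Itgav binds latent TGF-β, was at 38.9, 29.2, 41.8, and 32.3 CPM in aged sham and at 60.7, 48.1, 54.4, 32.5, and 53.5 CPM in aged bleo. Aged bleo 4 lay within the aged sham range and the other 4 aged bleo libraries above it. Means were 35.5 ± 5.79 and 49.8 ± 10.7 CPM (log2 fold change 0.49, SE 0.18, FDR = 0.0603), which did not pass the fold threshold. Without aged bleo 4 Itgb8 was called higher (0.60, FDR = 0.00769).

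**Figure D3:**
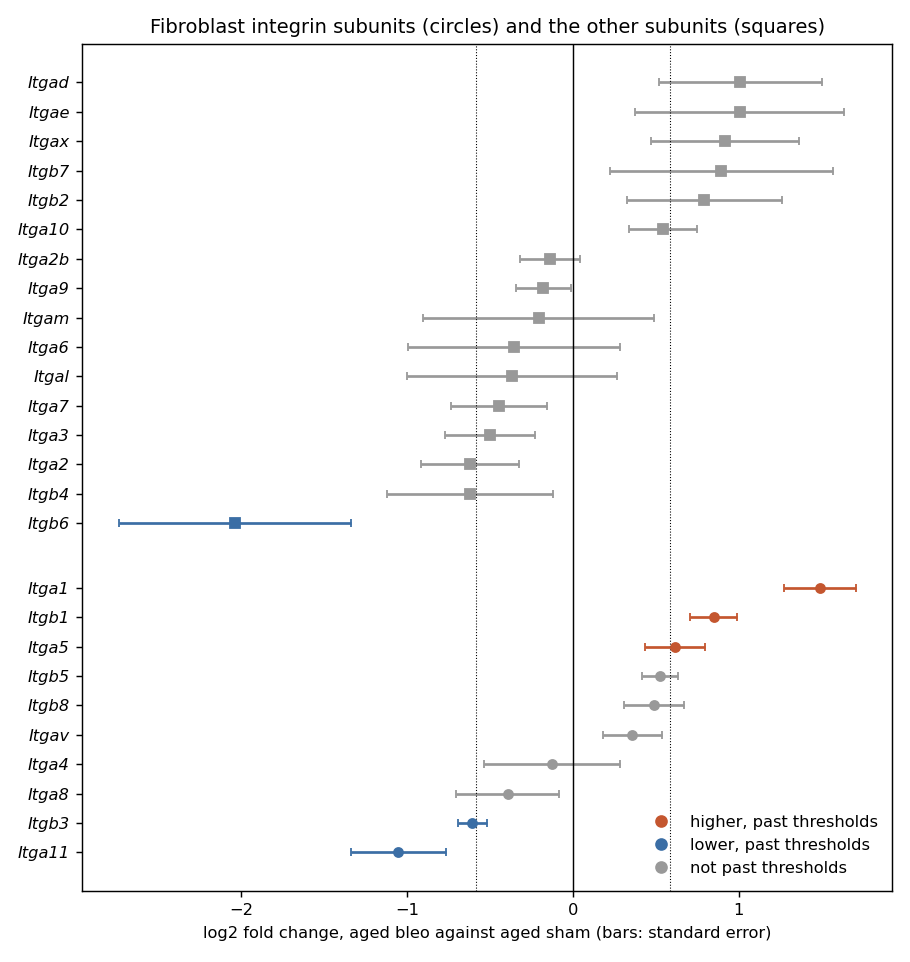
Log2 fold change of aged bleo against aged sham (x axis, bars give the SE) for the 10 fibroblast integrin subunits (circles) and the other 16 subunits (squares), with called genes coloured and dotted lines at a fold change of 1.5. Itga1 is highest of the called members at 1.49 and Itga11 lowest at -1.05, and Itgb6 is the single coloured square, at -2.04 with a wide bar (SE 0.70).

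Compared per length by the deposited FPKM, Itgb1 had the highest mean level of the 10 subunits in both groups, with 79.5 ± 4.07 FPKM in aged sham and 147 ± 29.7 FPKM in aged bleo, followed by Itgb5 (40.2 ± 5.20 and 59.3 ± 5.90 FPKM). In aged sham the order continued with Itga8 (32.9 ± 9.72 FPKM), Itga5 (19.1 ± 1.85 FPKM), Itga11 (11.9 ± 1.06 FPKM), Itgav (6.59 ± 1.92 FPKM), Itgb3 (4.92 ± 0.32 FPKM), Itga1 (1.80 ± 0.538 FPKM), Itgb8 (1.35 ± 0.224 FPKM), and Itga4 (0.517 ± 0.193 FPKM). Neighbours whose library ranges overlapped there were Itgb5 and Itga8, Itgav and Itgb3, and Itga1 and Itgb8. In aged bleo, Itga5 (30.0 ± 8.34 FPKM) and Itga8 (25.5 ± 8.97 FPKM) came in the reverse order of aged sham, with overlapping ranges and Itga5 above Itga8 in 2 of 5 libraries. This exchange was absent with the length of the longest coding transcript, where Itga8 (32.3) stayed above Itga5 (30.0) in the mean. Itgav (8.67 ± 0.868 FPKM), Itga11 (5.86 ± 2.34 FPKM), Itga1 (5.15 ± 0.934 FPKM), and Itgb3 (3.32 ± 0.469 FPKM) followed, each overlapping its neighbour in this run. Itgb8 (1.93 ± 0.395 FPKM) and Itga4 (0.493 ± 0.333 FPKM) were again lowest. With the transcript lengths, 6 of 10 subunits kept their place in each group. The pairs that changed places were Itgb5 and Itga8 and Itga1 and Itgb8 in aged sham, and Itga5 and Itga8 and Itga1 and Itgb3 in aged bleo. The changes that involve Itga1 rest on the transcript length that understates its level, as given above.

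The make-up of the α subunits differed between the groups while their sum did not separate them. The summed FPKM of the 6 α subunits was 60.2 to 79.3 in aged sham and 68.3 to 79.97 in aged bleo, which overlapped. Itga5 made up 22.3% to 28.6% of it in aged sham and 27.3% to 58.3% in aged bleo, with the highest share in aged bleo 4. Itga11 went from 13.8% to 21.9% in aged sham to 4.58% to 11.2% in aged bleo, and Itga1 from 1.87% to 3.28% to 5.97% to 8.34%. Neither pair of ranges overlapped. Itga8 was the largest α share in every aged sham library (35.9% to 54.4%) and in aged bleo 1 to 3 (36.5% to 45.1%), while in aged bleo 4 (18.2%) and aged bleo 5 (26.7%) it was below Itga5, as it was there with the transcript lengths (21.2% and 30.7%).

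Of the summed FPKM of the 4 β subunits, Itgb1 took 63.2% ± 2.09 in aged sham and 69.1% ± 4.37 in aged bleo, and Itgb3 took 3.91% ± 0.219 and 1.59% ± 0.231. Itgb3 ran from 3.61% to 4.13% in aged sham and from 1.26% to 1.83% in aged bleo, with no overlap. The ratio of Itgb5 to Itgb3 was 7.46 to 9.70 in aged sham and 14.0 to 22.0 in aged bleo. The summed member α subunits other than Itgav came to 0.718 to 0.933 of the Itgb1 level in aged sham and to 0.371 to 0.635 in aged bleo. This sum leaves out Itgb1 partners that are not members, such as Itga9 (8.44 to 10.5 FPKM in aged sham and 6.34 to 10.5 FPKM in aged bleo). Shares within a sum are not independent of each other, and no test was run on them.

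**Figure D4:**
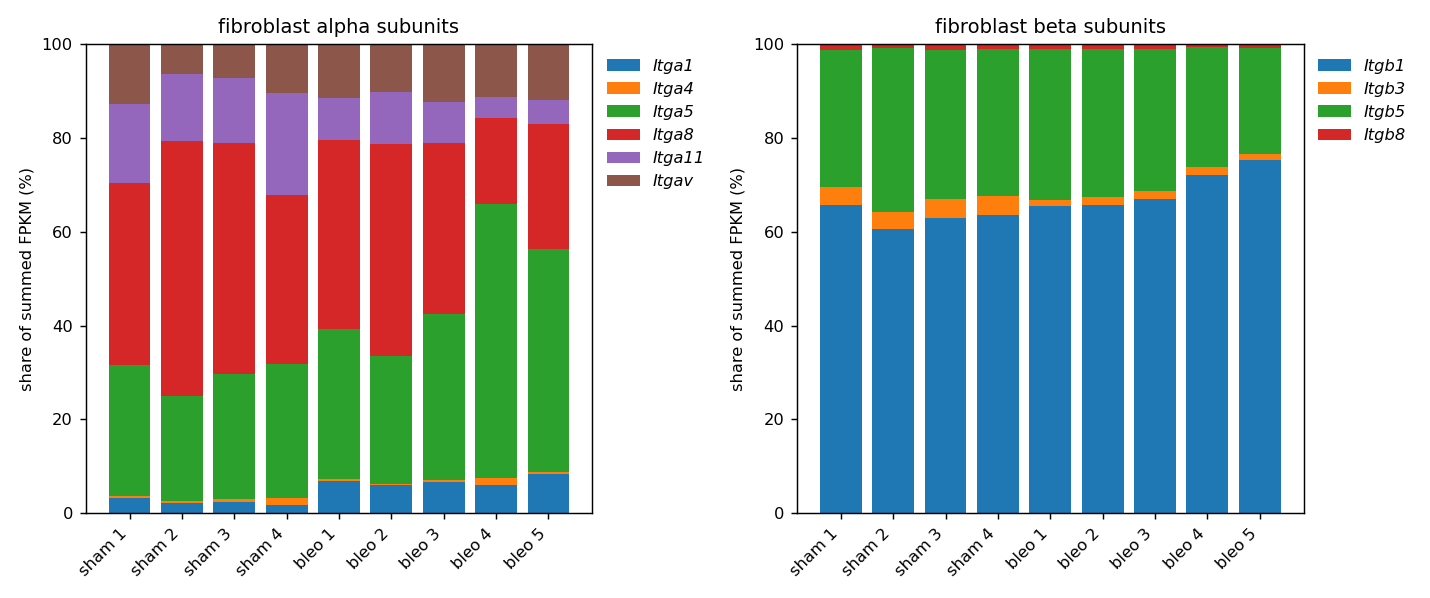
Share of each subunit (y axis, percent) in the summed FPKM of the 6 α subunits (left) and of the 4 β subunits (right), 1 stacked bar per library. In aged bleo 4 and 5 the Itga5 share (58.3% and 47.5%) exceeds the Itga8 share (18.2% and 26.7%), and Itgb1 takes 60.5% to 65.6% of the β sum in aged sham and 65.4% to 75.3% in aged bleo.

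The aged bleo libraries also differed among themselves. Itga8 and Itga11 were both highest in aged bleo 2 and lowest in aged bleo 4 and 5, and Itga5 and Itgb1 were both lowest in aged bleo 2 and highest in aged bleo 4 and 5. Aged bleo 4 and 5 also had the highest Col1a1 levels (24553 and 25954 CPM, against 13560.2 to 21645 CPM in the other 3). The other fibroblast genes did not share this order. Pdgfra, Pdgfrb, Dcn, Lum, and Tcf21 had their lowest aged bleo levels in aged bleo 4 and 5. Col3a1 was lowest in aged bleo 4 (20064 CPM), and Col1a2 was highest in aged bleo 5 (19117 CPM) and aged bleo 3 (17698 CPM). The summed level of 6 cell cycle genes was highest in aged bleo 4 and 5 (309 and 276 CPM, against 41.3 to 118 CPM). All 6 cell cycle genes were called higher in aged bleo, 5 of them with overlapping groups, and their sum was 13.1 to 61.4 CPM in aged sham. Over all genes tested 12.3% were called higher and 11.5% lower. Macrophage genes were also highest in aged bleo 4 and 5 (1503 and 861 CPM, against 445 to 669 CPM in aged bleo 1 to 3 and 141 to 264 CPM in aged sham), with 4 of 8 called higher. Pericyte and smooth muscle genes summed to 3315 to 5998 CPM in aged sham and 1970.0 to 3539 CPM in aged bleo, with 1 of 9 called higher and 4 called lower. The part of these genes' cells in the integrin levels was not tested. Without aged bleo 4 and 5, Itga1, Itga11, Itgb1, and Itgb3 were still called, Itga5 was not, and Itga4 (-0.74, FDR = 0.0764) and Itgb8 (0.61, FDR = 0.0133) were called besides.

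The other 16 integrin subunits in the table, most of them known from leukocytes, platelets, epithelium, or muscle, held 1 called gene. Over all genes tested 23.8% were called. Itgb6, the epithelial partner of Itgav, fell from 0.804 ± 0.407 to 0.188 ± 0.201 CPM (log2 fold change -2.04, SE 0.70, FDR = 0.0476). Its libraries overlapped and held as few as 2 counts, and with at least 10 counts required in every library it was not tested. Epithelial genes summed to 10.1 to 81.3 CPM in aged sham and 16.8 to 53.3 CPM in aged bleo (1 of 7 called, higher). The median log2 fold change of the 16 was -0.19, and none had groups that did not overlap, against 32.2% of all genes tested. Itga9, whose product binds tenascin C with Itgb1, had the highest mean CPM of the 16 in each group, with no account of gene length. This is why it is named, after its values were seen. It was at 181 ± 15.8 and 160.1 ± 35.8 CPM (log2 fold change -0.18, SE 0.17, FDR = 0.43). The other collagen-binding α subunits, also named after their values were seen, were Itga2 (32.2 ± 7.76 and 21.0 ± 8.23 CPM, log2 fold change -0.62, FDR = 0.131) and Itga10 (10.6 ± 2.06 and 15.4 ± 3.55 CPM, 0.54, FDR = 0.0665), and neither was called.

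Of 25 genes for integrin ligands and the matrix around them, 17 were called, 14 higher and 3 lower, with a median log2 fold change of 0.87. Over all genes tested 23.8% were called, with 12.3% higher and 11.5% lower. Spp1, which encodes osteopontin, a ligand of the αv receptors, was at 10.7, 7.19, 6.06, and 11.2 CPM in aged sham and at 2202, 980.0, 1118, 3163, and 3263 CPM in aged bleo. The fitted log2 fold change was 7.93 (SE 0.55, FDR = 2.84e-05), the highest of the list. Macrophages also make Spp1, and their part in this difference was not tested. Levels of macrophage genes are given above. Tnc, tenascin C, rose from 34.7 ± 10.3 to 2068 ± 735 CPM (log2 fold change 5.90, SE 0.39) and Postn, periostin, from 235 ± 66.2 to 1178 ± 242 CPM (2.32, SE 0.22).

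Tgfb1, whose latent product is bound by αv integrins, rose from 26.5 ± 1.09 to 109 ± 28.1 CPM (log2 fold change 2.04, SE 0.18, FDR = 9.79e-05). It was at 104, 74.1, 112, 152, and 102 CPM in aged bleo 1 to 5. Aged bleo 4 also had the highest summed macrophage and pan-leukocyte levels, and the part of these cells in the rise was not tested. The ligand genes that fell were Fbln5, Cyr61, and Ctgf. Fbln5, an elastic fibre protein with an RGD site, fell from 327 ± 26.0 to 150.2 ± 60.3 CPM (log2 fold change -1.12, SE 0.28, FDR = 0.0153), with its lowest levels in aged bleo 4 and 5. The matricellular genes Cyr61 (-0.91, FDR = 0.0612, overlapping groups) and Ctgf (-0.86, FDR = 0.00951, no overlap) also fell.

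Among 32 genes for adaptors and membrane partners of integrins, 31 were tested (Fermt1 had too few counts) and 11 were called, 7 higher and 4 lower, with a median log2 fold change of -0.03. This count stands beside the 23.8% of all genes tested that were called. Parvb, β-parvin of the complex of integrin-linked kinase, PINCH, and parvin, rose from 4.56 ± 1.49 to 16.2 ± 6.61 CPM (log2 fold change 1.82, SE 0.34, FDR = 0.00427). Lims2, the PINCH-2 member of the same complex, fell from 77.7 ± 13.5 to 20.7 ± 11.0 CPM (-1.91, SE 0.37, FDR = 0.00512). Their paralogues in this complex, named after their values were seen, went otherwise. Lims1, PINCH-1, rose from 119.9 ± 13.9 to 203 ± 29.8 CPM (0.76, SE 0.12, FDR = 0.00227). Parva, α-parvin, was at 248 ± 9.35 and 298 ± 29.5 CPM and was not called (0.26, SE 0.09, FDR = 0.0452). The focal adhesion genes Bcar1 (25.5 ± 2.55 to 47.7 ± 3.86 CPM, log2 fold change 0.90) and Tns3 (251 ± 56.1 to 459 ± 54.7 CPM, 0.87) rose without overlap of the groups. Plaur, the urokinase receptor, rose from 35.9 ± 9.31 to 77.5 ± 49.6 CPM (log2 fold change 1.11, FDR = 0.0619), with overlap and its highest level, 161 CPM, in aged bleo 4. Kank1 fell from 244 ± 31.5 to 114 ± 46.8 CPM (-1.09, FDR = 0.0207), and Pxn, paxillin, from 145 ± 16.2 to 92.9 ± 16.3 CPM (-0.64, FDR = 0.0078).

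**Figure D5:**
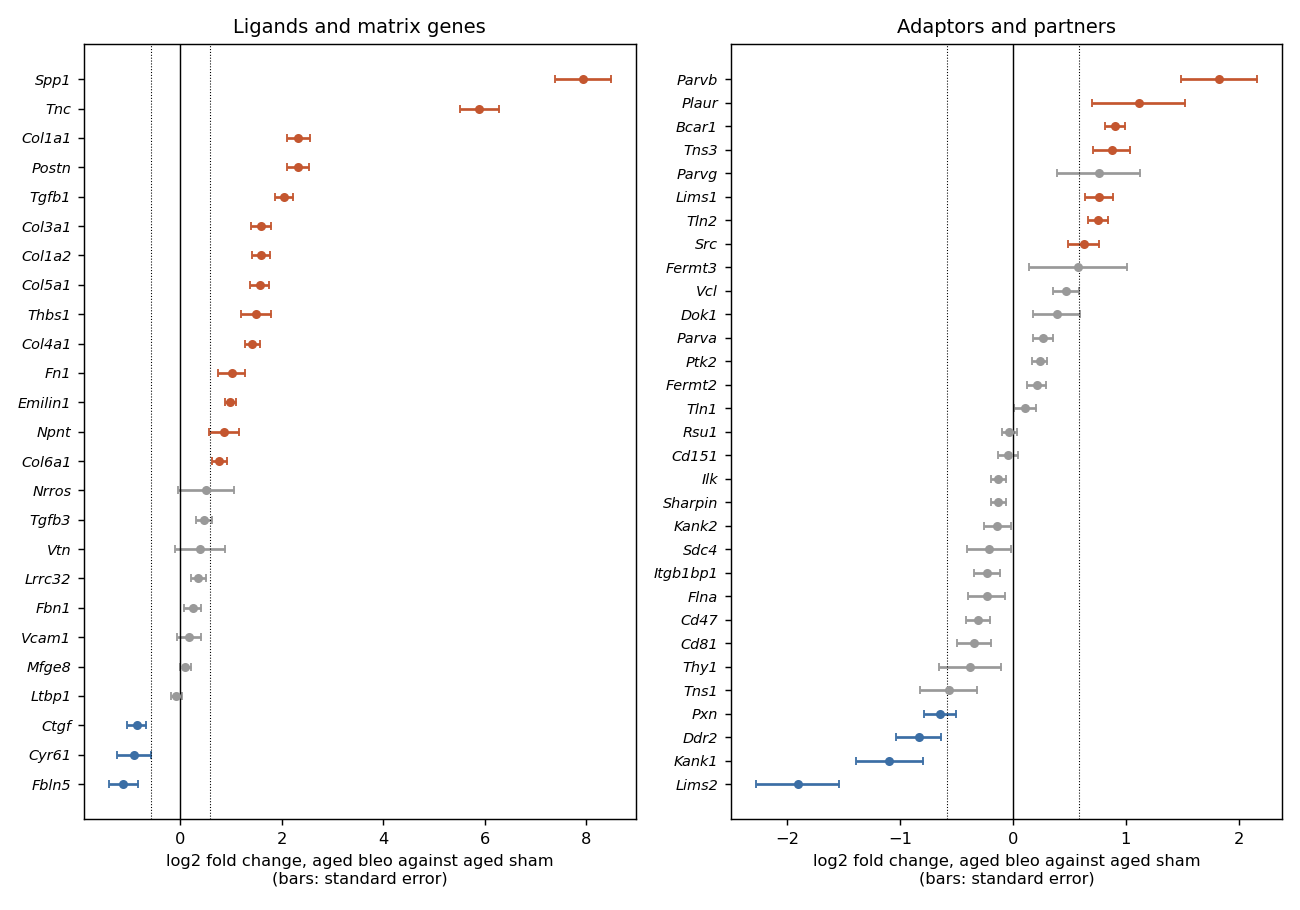
Log2 fold change of aged bleo against aged sham (x axes, on different scales in the panels, bars give the SE) for the 25 ligand and matrix genes (left) and the 31 tested adaptor and partner genes (right), with called genes in orange (higher) or blue (lower) and dotted lines at a fold change of 1.5. Of the ligand genes 14 are orange and 3 blue, with Spp1 at 7.93 and Tnc at 5.90, and of the adaptor and partner genes 7 are orange and 4 blue, from Lims2 at -1.91 to Parvb at 1.82.

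For each called subunit, the genes with the most similar pattern over the 9 libraries were found among 15270 genes by the root mean square difference of centred log2 CPM, a measure that includes the difference between groups. They were Lama5 (0.141) and Slc5a3 (0.171) for Itga1, Tgfbr3 (0.0532) and Klhl13 (0.0802) for Itga11, and Hspd1 (0.0785) and Rangap1 (0.0832) for Itga5. For Itgb1 they were Narf (0.0679) and Bmi1 (0.081), and for Itgb3 they were Rap1b (0.0764) and Hn1 (0.0966). Itga11 had the closest match of the 5, and Itga1 the most distant.

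Some members share annotated exonic bases with other genes, and the sources used here do not state whether counting used strand. Itga4 shares 1124 bases with Cerkl on the opposite strand (55 to 181 counts per library), Itga8 372 bases with the antisense gene E030013I19Rik (700 to 2779 counts), and Itgav 634 bases with Gm13684 (2 to 36 counts). Itga1 shares 685 bases with Gm49395 on the same strand, a gene absent from the deposited table, for which no counts were thus given. The overlaps were found with the exons of GENCODE M21, which for Itga1 hold 18599 bases against the 5984 of the deposited length. Reads of the shared stretches cannot be assigned with certainty, and the remaining members share none.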

How the data were processed

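The authors deposited a table of read counts per gene, whole numbers without normalization, with FPKM values scaled by gene length and library total. The submitters' processing notes name bcl2fastq, STAR 2.5.2b, featureCounts of the Subread package, and the mm10 build, and per the labels the libraries were made from polyadenylated RNA. The strand setting is not given in the sources used here. The deposited gene positions equal those of GENCODE M21 for 78.9% of 42462 shared identifiers.

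Libraries were grouped by their labels and all 9 were used. The test was edgeR 4.0.16 (TMM, glmQLFit, glmQLFTest, no covariate) in R 4.3.3 on the genes whose counts averaged 25 or more over the libraries. The filter and the call thresholds (FDR 0.10, fold change 1.5) are those of the study, whose own test was a moderated one. SEs came from the fold change and its F statistic. FPKM served only for levels between genes and for alternatives. That each library came from its own mouse is taken from the group sizes in the labels, and p-values measure the spread between these libraries. No pair within a group agreed within counting error (chi-square over degrees of freedom of 31.7 or more). The alternatives were DESeq2 1.42.0, limma 3.58.1 (limma-trend) on log2 CPM with a prior count of 2 and on log2(FPKM + 0.1) and log2(FPKM + 1), RLE and library size scaling, other filters and thresholds, a robust fit, single libraries left out, a block on the replicate number, and the libraries whose names end in 4. The scripts were tested on simulated counts.

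The members and lists were chosen with earlier results of these data known. Named in the text are all 10 members, the 4 most changed called genes of each other list and direction, known ligands (Fn1, Col1a1, Spp1, Tnc, Npnt, Vcam1, Tgfb1, Postn), and the 2 most similar genes with a mean of at least 1 CPM for each called member. Of the marker lists not described in the results, all 4 B cell genes were called lower (summed level of at most 10.6 CPM), and summed levels in aged sham and aged bleo were 4.17 to 9.14 and 1.66 to 28.3 CPM for T and NK cell genes, 22.6 to 71.0 and 27.5 to 106 CPM for mesothelial genes, and 3.30 to 11.8 and 0.71 to 16.4 CPM for erythroid genes. Intervals and floors from counts cover counting error only, and 3 counts, the most that a count of 0 allows, are 0.0409 to 0.0605 CPM. Promoter sequences came from RefSeq (GRCm38.p6), where 9 of 10 members had an entry.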

Additional observations from a re-analysis of the deposited data

Results flagged for a closer look

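In 20 groups of 4 or 5 library values (10 subunits in each treatment), the gap of the highest or lowest library to its neighbour, divided by the range of the group, passed Dixon's 95% critical value in 2, where chance gives about 1 in 20. Itga4 was at 33.57 CPM in aged bleo 4, far above the other aged bleo libraries (9.13 to 14.4 CPM). Itgb3 was at 54.57 CPM in aged bleo 4, above the other aged bleo libraries (42.2 to 44.7 CPM) and below all aged sham libraries (65.8 to 75.0 CPM).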

How the results depend on the processing

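Over 24 alternative settings, Itga1, Itga11, and Itgav kept their call status in all, Itgb1 and Itga8 in 23, Itgb5 in 22, Itgb8 in 20, Itga4 in 19, Itgb3 in 17, and Itga5 in 15. The changed thresholds and the robust fit gave the members the same fold changes as the main fit, so no direction could turn there. With FDR alone a called gene could not lose its call. Direction turned for Itga4 (0.97 in the libraries whose names end in 4, and -0.61 to 0.17 with single libraries left out, positive without aged sham 4 or, at 0.02, aged bleo 1) and for Itgb8 (-0.11 in the libraries whose names end in 4). That fit holds 1 aged bleo library, assumed to vary like the aged sham libraries, and the single lost status of Itga8 (-1.48) comes from it. What these name endings mean is not stated, and all aged sham libraries share 1 ending with aged bleo 4, so ending and treatment cannot be told apart for the rest. The cause of these changes was not tested. Members called numbered 3 to 6 with single libraries left out (2 to 3 higher and 1 to 3 lower), and 3, with 1 lower, without aged bleo 5. They numbered 2 (1 higher and 1 lower) at FDR under 0.05 and fold change over 2. With FDR alone 5 were higher, and with log2(FPKM + 0.1) or log2(FPKM + 1) 1 was lower.

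Genes called numbered 1785 (960 higher and 825 lower) with log2(FPKM + 1), 2158 (1224 and 934) at the stricter thresholds, 7553 (3944 and 3609) with FDR alone, 6177 (3118 lower) in the libraries whose names end in 4, and 3525 to 4597 with single libraries left out. Of the other integrin subunits, 3 were called with DESeq2 or limma-trend on log2 CPM, 0 with log2(FPKM + 1) or at least 10 counts in every library, 2 with FDR alone, 8 in the libraries whose names end in 4, and 1 to 3 with single libraries left out. Chosen after seeing the data, leaving out aged bleo 4 with either aged sham 4 or aged bleo 5 gave 4. At the stricter thresholds 3 adaptor and partner genes were called. With the longest coding transcript as length, 6 subunits kept their place in each group. Itga1, whose level this length understates, was among those that moved.

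The deviations of libraries with the same replicate number had r over genes of 0.0922, 0.0623, -0.13, and, for aged sham 4 with aged bleo 4, 0.326. As 3 of the 4 pairs were under 0.1, the numbers were not taken to pair the libraries. A fit with the replicate block, for which aged bleo 5 was left out, called 3541 genes, 4 members, and 4 of the other subunits, with Itga5 at 0.49, and without the block the same libraries gave 3 members.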
